A study of Homo sapiens with 15 samples.

Results

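CYR61, CTGF and ANKRD1 are genes widely read as a measure of YAP/TEAD transcription. They were taken by symbol from the authors' deposited table, where each had 1 row, so the set holds 3 of the 11230 listed rows. All libraries came from HEK293FT, a line derived from human embryonic kidney cells that carries the SV40 large T antigen. The cells received dCas9-VP64, which carries a transcriptional activator to a guided site, an MS2-p65-HSF1 activator and 5 guide RNAs, and were selected with puromycin at 24 hours and harvested at 48 hours. Control cells had the same activators with non-targeting guides. The target groups, named here by library title, were trex0108, trex4039, trex5008 and trex8168, each guided to the region 50 to 450 bp upstream of 1 TrEx long non-coding RNA, with 3 libraries per group, labelled biological triplicates, and 15 in all. The libraries titled trex5008 carry the target label TrEx8168 and those titled trex8168 the label TrEx5008, so for these 2 groups the target is uncertain, while trex0108 and trex4039 carry matching labels (TrEx108 and TrEx4039).

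YAP and its relative TAZ are coactivators that bind DNA through TEAD transcription factors. When the Hippo kinases are active, LATS kinases phosphorylate YAP and TAZ and hold them in the cytoplasm. Low cell density, a tense actin skeleton and serum free them to enter the nucleus, which is why transcription of CYR61, CTGF and ANKRD1 is known to follow cell shape and growth conditions. CYR61 (also named CCN1) and CTGF (CCN2) encode secreted matrix proteins of the CCN family that bind integrins. ANKRD1 encodes an ankyrin repeat protein of the nucleus and the muscle sarcomere. The genes are also known to respond to SRF with its MRTF coactivators and to TGF-beta.

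The core of the TEAD recognition element, GGAATG, which reads CATTCC when it lies on the opposite strand, was searched in the 250 bases before the start site, on both strands, in RefSeq promoters of GRCh38.p14. The promoter of CYR61 was not analysed here. Those of CTGF and ANKRD1 are shown, with each copy of that core printed in capitals. Both are on the minus strand and run 5′ to 3′ along the gene, at chr6:131951373-131951622 for CTGF and chr10:90921088-90921337 for ANKRD1.
CTGF: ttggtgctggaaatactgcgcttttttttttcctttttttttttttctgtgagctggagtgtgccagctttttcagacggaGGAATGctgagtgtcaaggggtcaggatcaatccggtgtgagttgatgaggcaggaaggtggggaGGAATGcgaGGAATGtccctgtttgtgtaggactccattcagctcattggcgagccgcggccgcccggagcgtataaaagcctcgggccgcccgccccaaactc
ANKRD1: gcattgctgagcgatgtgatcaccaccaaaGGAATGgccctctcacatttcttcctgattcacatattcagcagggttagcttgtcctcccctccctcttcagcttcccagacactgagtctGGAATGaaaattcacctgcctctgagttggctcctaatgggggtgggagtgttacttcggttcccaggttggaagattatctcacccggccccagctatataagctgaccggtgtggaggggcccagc
In CTGF the 3 cores began 169, 104 and 95 bases before the start site, and in ANKRD1 the 2 cores began 220 and 128 bases before it. All 5 lay on the strand of the gene and none overlapped another. Of 35116 RefSeq promoters of this length, 11.9% held at least 1 core, 0.940% at least 2 and 0.0826% at least 3. The genes were picked as YAP/TEAD targets, so these shares are a description and no test. Both promoters also held a TATA sequence that began 32 bases before the start site, which was TATAAAA for the promoter of CTGF. For the promoter of ANKRD1 it was TATATAA, and only the strand of the gene was searched. One of these TATA sequences was present in 3.96% of promoters. A match of letters is a description and does not show that a factor was bound in these cells.

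In the trex4039 libraries all 3 genes were at their highest of the 5 groups, and each had an adjusted p under 0.05 against control per the authors' deposited table. The deposited log2 fold changes were 0.47 for CYR61, 0.44 for CTGF and 0.38 for ANKRD1. In the trex0108, trex5008 and trex8168 comparisons 0 of 3 had an adjusted p under 0.05, in either direction. Rows past that threshold are called here. Among all rows with an adjusted p per the authors' deposited table, 37.1% were called higher and 33.7% lower in trex4039. The corresponding shares were 29.8% higher and 24.3% lower in trex5008, 14.6% and 6.45% in trex8168, and 5.65% and 0.249% in trex0108. Every listed row passed 0.1 in 1 comparison or more, so these shares describe a preselected table and not all expressed genes. CTGF and ANKRD1 passed 0.1 in trex4039 alone and were listed only through it. Their pattern of a call there and in no other comparison is therefore largely set by the listing. CYR61 also passed 0.1 in trex8168. All 4 comparisons share the 3 control libraries.

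CYR61 was the most strongly called of the set. The authors' mean normalised count was 1023 in control, 1096 in trex0108, 1122 in trex5008, 1152 in trex8168 and 1444 in trex4039. The 4 groups other than trex4039 lay within 1.13-fold of one another, and the trex4039 mean stood 1.25-fold above the highest of them. Against control the trex4039 mean was 41.2% higher, and the deposited log2 fold change of 0.47 had an adjusted p of 2.63e-11 per the authors' deposited table. A standard error of 0.0662 was recovered for it from its rank and adjusted p, or 0.0640 when more tests were assumed. Of 4149 rows called higher in trex4039, 281 (6.77%) had a larger log2 fold change. In the other comparisons the authors' deposited table gives CYR61 log2 fold changes of 0.16 for trex8168 (adjusted p 0.0909), 0.12 for trex5008 (0.142) and 0.09 for trex0108 (0.916). At the authors' own threshold of 0.1 the trex8168 value is marked as higher.

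CYR61 differed between trex4039 and trex8168, the only one of the 6 pairs of target groups in which a member could be tested. Its log2 fold change was 0.31 larger in trex4039, with an approximate standard error of 0.0980 (adjusted p 0.0109, normal test on the recovered errors of the deposited DESeq2 fold changes). The p-value was adjusted over the 2385 rows with an adjusted p under 0.1 in both comparisons, of which 517 (21.7%) differed in either direction and 190 (7.97%) were higher in trex4039 than in trex8168. Under the other settings of the recovered errors, 273 to 495 rows were higher in trex4039. The limit of 0.1 was chosen after it was seen that no member was under 0.05 in 2 comparisons. For CTGF, ANKRD1 and the other pairs, differences between target groups were not tested.

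CTGF showed the widest separation between trex4039 and the other groups. The authors' mean was 730 in control, 751 in trex0108, 677 in trex5008, 625 in trex8168 and 1021 in trex4039. The lower 4 groups spanned 1.20-fold, and trex4039 stood 1.36-fold above the highest of them. In the authors' deposited table the log2 fold change in trex4039 was 0.44 (adjusted p 2.47e-06), a mean 39.9% above control, with a recovered standard error of 0.0869 or 0.0814. Unlike CYR61 and ANKRD1, CTGF had means below control in trex5008 and trex8168. The deposited log2 fold changes there were -0.10 (adjusted p 0.406) and -0.20 (0.110) per the authors' deposited table, neither of them called. In trex0108 it was 0.04 (0.999). Measured against the mean of the other 3 target groups, which leaves out the control libraries, the trex4039 mean was at 149.1% for CTGF, 128.6% for CYR61 and 121.9% for ANKRD1. On the log2 scale these ratios of means are 0.58, 0.36 and 0.29.

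ANKRD1 had the lowest counts and the least precise value of the set. The authors' mean was 274 in control, 288 in trex8168, 302 in trex5008, 328 in trex0108 and 373 in trex4039. The trex4039 mean was 35.9% above control and nearer to that of trex0108, the next group, while the other 4 groups spanned 1.20-fold. The authors' deposited table gives a log2 fold change of 0.38 in trex4039 (adjusted p 5.70e-04), with a recovered standard error of 0.103 or 0.0921. In trex0108 the deposited log2 fold change was 0.22, which was not called per the authors' deposited table (adjusted p 0.489). In trex5008 and trex8168 it was 0.11 and 0.06 (adjusted p 0.434 and 0.765) per the authors' deposited table. The gap between the largest and smallest of the trex4039 fold changes, CYR61 and ANKRD1, was 0.09 on the log2 scale and smaller than the recovered error of ANKRD1.

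**Figure D1:**
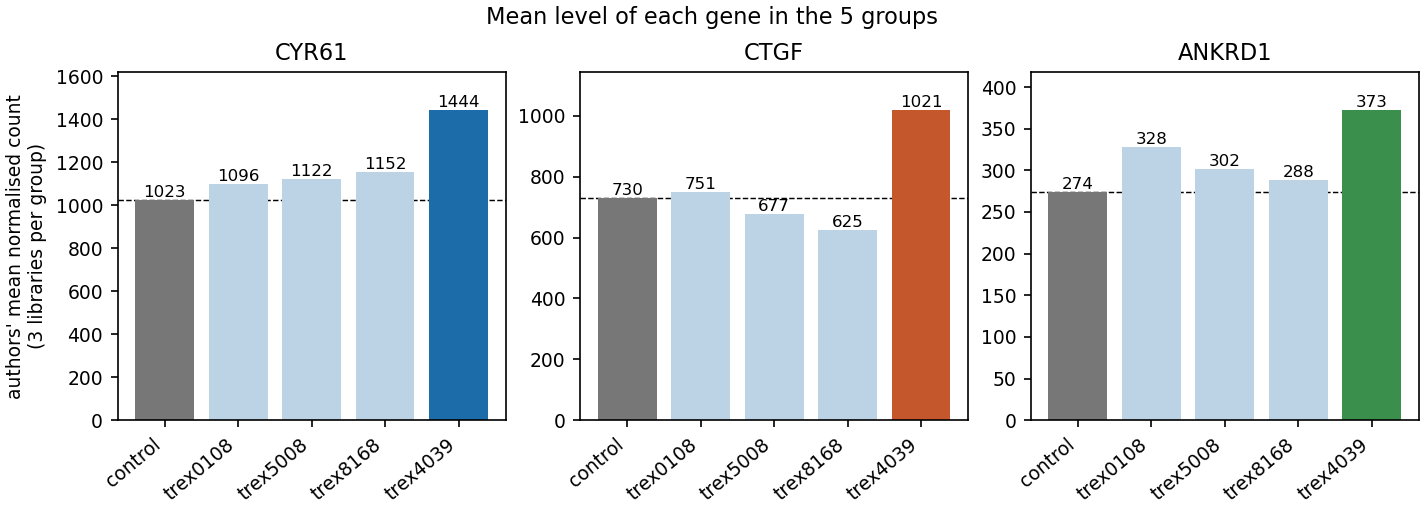
The authors' mean normalised count (linear axis from 0) of CYR61, CTGF and ANKRD1 in the 5 groups of 3 libraries, with the control mean as a dashed line; no spread between libraries is drawn because the values are group means. In each panel trex4039 is highest, at 1444, 1021 and 373, and CTGF in trex5008 and trex8168 lies below the control mean of 730.

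Per kilobase of the longest protein-coding transcript, the mean over the 15 libraries was 509.8 normalised counts for CYR61, 325.3 for CTGF and 158.2 for ANKRD1. Of 6111 protein-coding rows with such a length, 60.8% had a lower level per kilobase than CYR61, 47.0% than CTGF and 29.7% than ANKRD1. CYR61 and CTGF were thus mid-range transcripts of the listed set. In bulk RNA, a change in the share of cells that express a gene and a change in RNA per cell cannot be told apart.

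The trex4039 fold changes of the listed protein-coding rows followed the GC content of transcripts, and CYR61 and CTGF lay above that trend. CTGF and ANKRD1 were listed only through their trex4039 value. Their ranks on that value are therefore a description among preselected rows and no test. Median deposited log2 fold changes in trex4039 ran from 0.35 in the most AT-rich of 20 equal bins of protein-coding rows to -0.34 in the most GC-rich, per the authors' deposited table. CYR61 (50.3% GC) and CTGF (51.5%) fell in the same bin of 306 rows, whose median was -0.02 per the authors' deposited table. In that bin CYR61 had the highest log2 fold change and CTGF ranked 2, and their values minus the bin median were 0.49 and 0.46. ANKRD1 (43.3% GC) ranked 24 of 305 in a bin with a median of 0.23 per the authors' deposited table. Minus that median it stood at 0.15, beside 0.38 as deposited and a recovered standard error of 0.103. The part of GC content in the ANKRD1 value was not tested further.

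**Figure D2:**
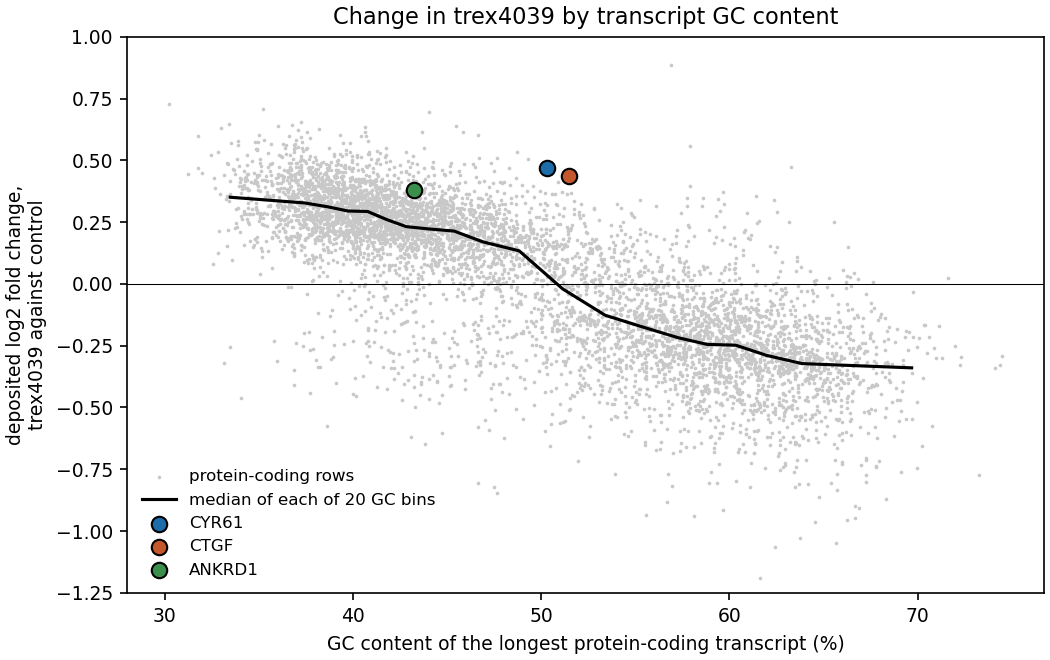
Deposited log2 fold change in trex4039 against control (vertical axis) by GC content in percent of the longest protein-coding transcript (horizontal axis), with 6111 protein-coding rows in grey, the median of each of 20 bins as a line and the 3 genes as coloured points. CYR61 and CTGF lie 0.49 and 0.46 above the bin median and ANKRD1 lies 0.15 above it. All points are listed rows, and CTGF and ANKRD1 were listed only through trex4039.

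In trex5008, where the table had a similar trend from 0.23 to -0.26 per the authors' deposited table, the values minus the bin median were 0.13 for CYR61, -0.09 for CTGF and -0.07 for ANKRD1. In trex8168 they were 0.10, -0.26 and -0.04. In trex0108 they were 0.06, 0.01 and 0.16. CTGF in trex8168 was the member furthest below its bin, with 271 of 306 rows having a larger log2 fold change.

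Other genes of a 22-gene YAP/TEAD target list did not all move one way in trex4039. The list had 8 listed rows, of which 5 were called higher, 2 lower and 1 was not called per the authors' deposited table. Of the 5 rows other than the members, 2 were higher and 2 lower. Over all rows the shares were 37.1% and 33.7%, and no test of the list was made. Besides the 3 members, MYOF, a membrane repair protein gene, and NT5E, which encodes the ecto-nucleotidase CD73, rose with log2 fold changes of 0.32 (adjusted p 0.00592) and 0.34 (0.0235) per the authors' deposited table. Both passed 0.1 in trex4039 alone, so they too were listed only through that comparison. ARHGEF17, a RhoA exchange factor gene, and FOXF2, a forkhead transcription factor gene, fell by 0.32 (9.80e-06) and 0.17 (0.0375) on the log2 scale per the authors' deposited table. The median of the 8 rows was 0.33, but that of the 5 rows other than the members was -0.11, beside 0.03 over all listed rows of the authors' deposited table. Minus the GC bin median, MYOF, NT5E, FOXF2 and ARHGEF17 stood at 0.15, 0.12, 0.15 and -0.03, so FOXF2 turned positive. In trex5008 2 of the 8 were lower and 0 higher per the authors' deposited table, again ARHGEF17 and FOXF2, at -0.29 and -0.30. Over all rows 24.3% were lower and 29.8% higher in trex5008, and 14.6% were higher in trex8168. In trex0108 only 5.65% of all rows were higher and 0.249% lower. In trex8168 1 was higher, GADD45A, a stress-response gene, at 0.24 (adjusted p 0.0497), and in trex0108 0 of 8 were called per the authors' deposited table. The other 14 genes of the list, among them AMOTL2, LATS2 and AXL, were not analysed here.

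Of 12 listed rows of a 30-gene Hippo list, which holds activators and inhibitors of YAP, 7 were called higher and 1 lower in trex4039 per the authors' deposited table. Over all rows the shares were 37.1% and 33.7%, and no test of the list was made. The coactivator gene YAP1 had an authors' mean of 3079 in control, 3280 in trex0108, 3201 in trex5008, 2932 in trex8168 and 3628 in trex4039. Its log2 fold change in trex4039 was 0.23 (adjusted p 3.26e-04) per the authors' deposited table, and TEAD1, which encodes a DNA-binding partner, rose with 0.27 (0.00567). The authors' deposited table also lists rises of inhibitory members: 0.40 for the Hippo kinase gene STK3, 0.38 for its scaffold gene SAV1, 0.34 for WWC2 and 0.29 for FRMD6. TP53BP2, which encodes a YAP-binding protein, rose with 0.24 per the authors' deposited table. Minus the GC bin median YAP1 stood at 0.0045 and TEAD1 at -0.02, and the median of the 12 rows went from 0.23 to 0.05.

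The called fall in the Hippo list was the row named TAOK1, after a kinase upstream of Hippo, at -0.76 per the authors' deposited table. That row had a mean of 26.1 over the 15 libraries and spans 4288 bp. Its authors' means were 39.4 in control and 8.66 in trex4039, a larger fall than the deposited value gives. The longest protein-coding transcript of TAOK1 has 12407 bases, so the row cannot cover all of it and may not stand for the gene. In trex5008 4 of the 12 Hippo rows were higher and 1 lower per the authors' deposited table, beside 29.8% and 24.3% of all rows. In trex8168 1 was higher and 1 lower, beside 14.6% and 6.45%, and the lower one was again the row named TAOK1. Over all rows 5.65% were higher and 0.249% lower in trex0108. In trex0108 1 was higher and 0 lower: TEAD3, another TEAD factor gene, with authors' means of 1183 in control and 1682 in trex0108. Its log2 fold change was 0.48 (adjusted p 9.12e-13) per the authors' deposited table, in the comparison where CYR61, CTGF and ANKRD1 were not called. TEAD4 was the row called higher in trex8168, at 0.18 (adjusted p 0.00579) per the authors' deposited table.

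**Figure D3:**
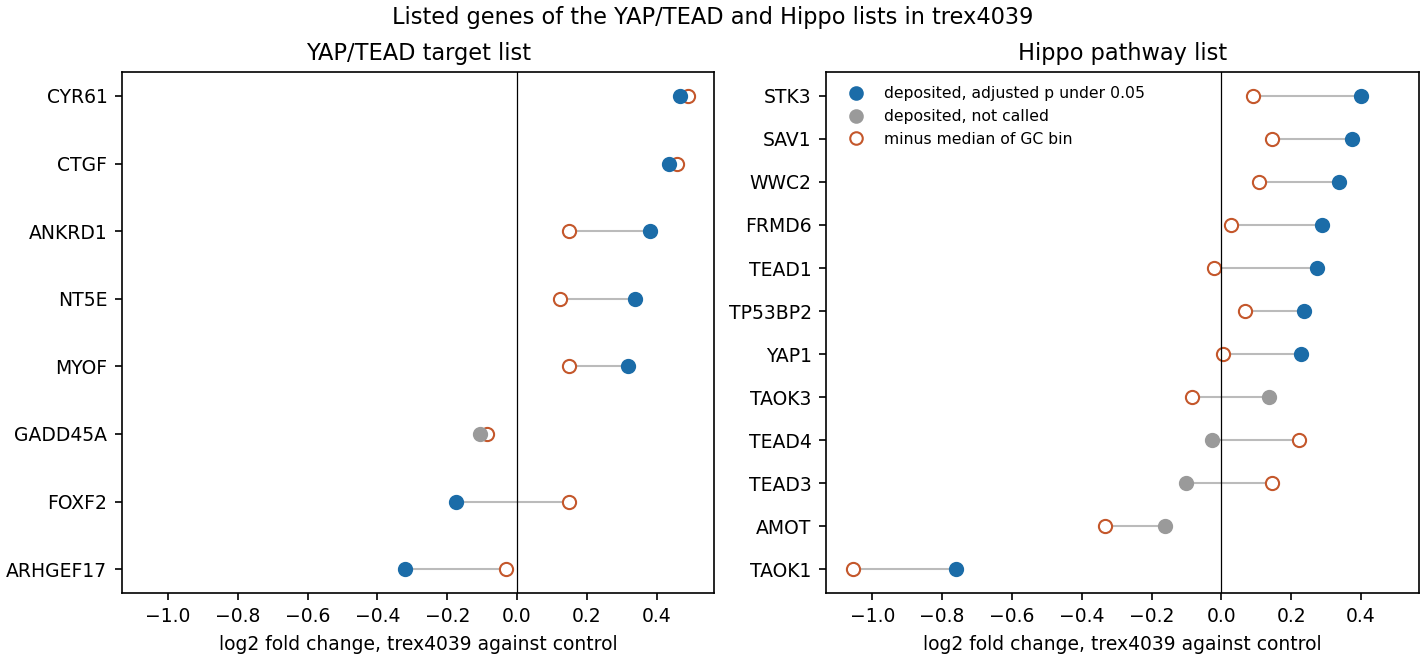
Log2 fold change in trex4039 against control for the 8 listed rows of the YAP/TEAD target list (left) and the 12 of the Hippo list (right), as deposited (filled, blue where the adjusted p is under 0.05 and grey where not) and minus the median of the GC bin (open). Open and filled points nearly coincide for CYR61 and CTGF, while those of YAP1 and TEAD1 move from 0.23 and 0.27 to about 0.

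Receptor genes for the CCN proteins were listed in part, and no test of the list was made. Of 6 listed rows of the 9-gene list, 3 were higher and 0 lower in trex4039 per the authors' deposited table. Over all rows the shares were 37.1% and 33.7%. The higher rows were ITGB1, ITGAV and ITGA6, with log2 fold changes of 0.40 (adjusted p 1.20e-12), 0.32 (5.90e-05) and 0.20 (0.00916) per the authors' deposited table. ITGB1, which encodes the shared beta1 chain, had authors' means of 7917 in control and 10541 in trex4039. ITGA5, ITGB5 and LRP6, at -0.07, -0.01 and 0.15, were not called per the authors' deposited table. Minus the GC bin median ITGB1, ITGAV and ITGA6 stood at 0.10, 0.01 and -0.03, and the median of the 6 rows at 0.06. In the other comparisons the list had 1 further call, ITGB1 in trex5008, at 0.19 (adjusted p 0.00218) per the authors' deposited table. Over all rows 29.8% were called higher in trex5008, 14.6% in trex8168 and 5.65% in trex0108. No CCN family gene other than CYR61 and CTGF was analysed here, out of a list of 6. YBX1, which encodes a binding partner of ANKRD1 protein, was called higher in trex8168 alone, at 0.17 (adjusted p 0.00343) per the authors' deposited table.

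Actin and SRF target genes showed no common direction in trex4039. Of 8 listed rows of a 16-gene list, 2 were higher and 3 lower per the authors' deposited table. Over all rows the shares were 37.1% and 33.7%, and no test of the list was made. The tropomyosin gene TPM1 and the vinculin gene VCL rose with 0.26 and 0.15, and the filamin gene FLNA and the calponin gene CNN2 fell by 0.37 and 0.16 on the log2 scale per the authors' deposited table. Minus the GC bin median, TPM1, VCL, FLNA and CNN2 stood at 0.05, 0.01, -0.08 and 0.09, so CNN2 turned positive. The row named ACTB also fell, but had a mean of 26.0 over the 15 libraries, beside 13440 for FLNA. It spans 6056 bp and may not stand for the beta-actin gene, which was not tested. With a mean of at least 50, the list had 2 rows higher and 2 lower in trex4039. CNN1, a smooth muscle calponin gene, was the call of this list in trex0108, with authors' means of 97.9 in control and 173.6 in trex0108. Its log2 fold change was 0.62 (adjusted p 8.27e-05) per the authors' deposited table, which is smaller than the log2 ratio of these means. Over all rows 5.65% were called higher in trex0108. The list had 2 rows higher and 3 lower in trex5008, beside 29.8% and 24.3% of all rows. In trex8168 it had 2 and 1, beside 14.6% and 6.45%. The lower one was again the row named ACTB, and with a mean of at least 50 there were 0 lower rows.

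Of the 3 members, 2 overlap another locus of the table that was itself called higher in trex4039. CYR61 (XLOC_001231, chromosome 1, 86042849 to 86055354, hg19) overlaps the interval of DDAH1 by 6079 bp. DDAH1, which encodes an enzyme that degrades methylated arginines, went from an authors' mean of 2919 in control to 3923 in trex4039, a log2 fold change of 0.41 per the authors' deposited table. CYR61 is on the plus strand and DDAH1 on the minus strand in GENCODE 29. ANKRD1 (XLOC_008774, chromosome 10, 92671682 to 92681019) lies wholly inside the unannotated locus XLOC_007249, which rose from 2267 to 3168, a log2 fold change of 0.46 per the authors' deposited table. That locus had a mean over the 15 libraries of 2721, compared with 313.1 for ANKRD1. The libraries were made with a directional kit, but the sources used here do not say how strand was set in the count. Reads of such overlapping loci can therefore not be told apart with certainty. CTGF (XLOC_057033, chromosome 6, 132268202 to 132272584) overlaps no listed row.

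Within 500 kb, 2 of 5 other listed rows around CYR61, 2 of 5 around CTGF and 3 of 4 around ANKRD1 were called higher in trex4039, and 0 were called lower, per the authors' deposited table. Over all rows 37.1% were called higher in trex4039, so 2 of 5 lies near the share of the whole table. Around CYR61 these were WDR63 and DDAH1, around CTGF ENPP1 and STX7, and around ANKRD1 HECTD2, XLOC_007249 and XLOC_007256. HECTD2, a ubiquitin ligase gene, had the largest value of them, 0.58 per the authors' deposited table. In trex5008, where no member was called, 3 of 5, 2 of 5 and 3 of 4 were higher per the authors' deposited table, and in trex8168 1 row was higher at each gene, beside 29.8% and 14.6% of all rows. In trex0108 0 rows were called around any of them. These neighbours were named by position after their values were seen.

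**Figure D4:**
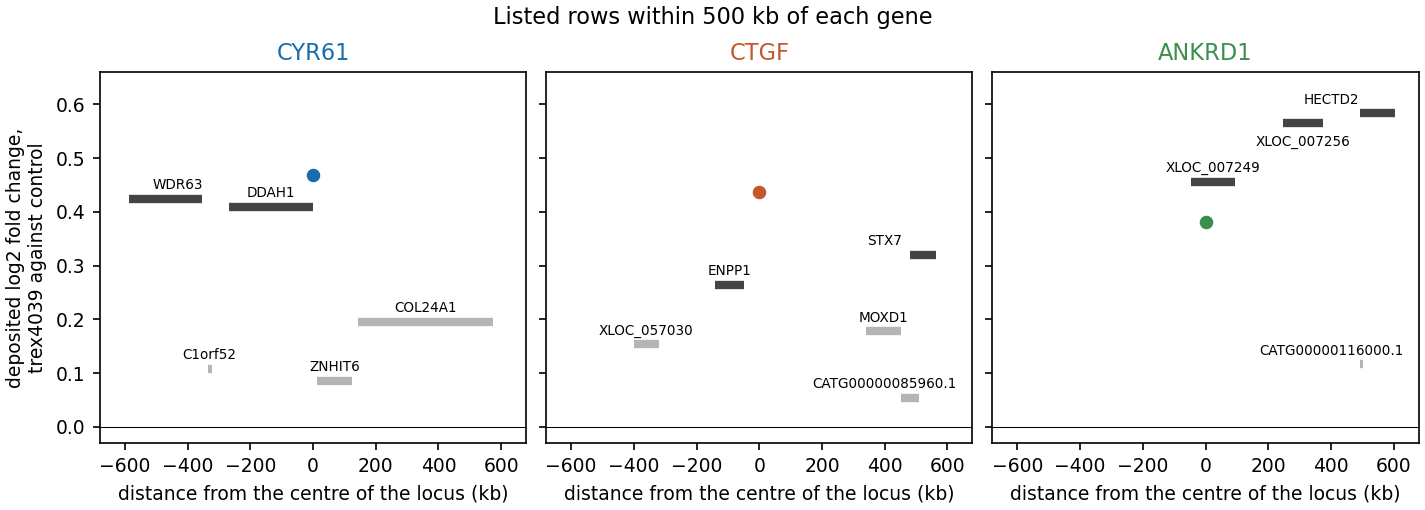
Deposited log2 fold change in trex4039 against control (vertical axis) of each listed row within 500 kb, drawn as a bar over its extent, by distance in kb from the centre of CYR61, CTGF or ANKRD1 (coloured points); dark bars have an adjusted p under 0.05 and grey bars do not. CYR61 at 0.47 and CTGF at 0.44 lie above all of their neighbours, and ANKRD1 at 0.38 lies below XLOC_007249, XLOC_007256 and HECTD2.

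The profile of each member over the 4 target groups was compared with 6731 protein-coding rows of a mean of at least 100, by the root mean square difference of log2 ratios of group mean to control mean. Nearest to CYR61 were RBBP9, PTGER2 and ABI1, at 0.0159, 0.0265 and 0.0340. CTGF was nearest to MATN3, XLOC_045933 and PEG10, at 0.0611, 0.0699 and 0.0702. For ANKRD1 the nearest rows were CYP39A1, ABHD17B and OSBPL11, at 0.0382, 0.0388 and 0.0396. CYR61 and ANKRD1 differed by 0.0969, with 428 rows nearer to CYR61 than ANKRD1 was. CTGF differed by 0.232 from CYR61 and by 0.220 from ANKRD1, and 3538 of the rows were nearer to CYR61 than CTGF was. From the side of CTGF, 967 rows were nearer to it than CYR61 was and 717 nearer than ANKRD1. The 3 genes had similar values in trex4039 and less similar ones over the other groups.

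The cell line was checked on the rows that the table lists. Of 7 genes known to be active in HEK293 cells, 4 were listed (NEFM, PAX2, LHX1 and KRT8), with summed authors' means of 10724.5 in control and from 8278 in trex4039 to 11289 in trex0108. NEFM, PAX2 and LHX1 were called lower in trex4039, at -0.54, -0.25 and -0.20 per the authors' deposited table, where 33.7% of all rows were lower. Minus the GC bin median they stood at -0.41, 0.07 and -0.07. Of 7 fibroblast matrix and surface genes 3 were listed, with summed authors' means of 515.9 in control, 513.3 in trex4039 and 471.3 to 497.4 in the other groups. LUM was higher and COL3A1 and COL1A2 lower in trex4039, at 0.44, -0.33 and -0.59 per the authors' deposited table. Over all rows 37.1% were higher and 33.7% lower. The COL1A2 row had low counts, with authors' means of 26.0 in control and 2.81 in trex4039. With a mean of at least 50, 1 row of this list was higher and 1 lower. Minus the GC bin median these 3 stood at 0.09, -0.31 and -0.42. None of 5 endothelial and 5 leukocyte markers was among the rows analysed here, so they give no value. The part of other cell types in the results was not tested.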

How the data were processed

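Polyadenylated RNA of 15 HEK293FT libraries (5 groups of 3, by title) was sequenced by the submitters. The submitters' processing notes name DESeq2 1.14.1, DESeq, Cufflinks, bedtools, STAR 2.5.1b and Bowtie2 2.2.1 and the build hg19 (GRCh37), without saying what each did. The deposited signal is, per the file headers, a mean normalised count for each group. The deposited log2 fold changes and p-value columns (adjusted p) compare each target group with control. Calls by the authors matched an adjusted p below 0.1, with 0 mismatches.

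Values per library were not used here, so the depth is unknown, there is no SD, and a count test could not be fitted. A row was called at an adjusted p under 0.05, as deposited. From its rank, each adjusted p was turned back into a raw p, with the listed rows as the number of tests or 69629, the highest locus number. Dividing a fold change by the matching normal quantile gave its approximate standard error. This step and the GC centring were tested on simulated data with a known number of tests and independent errors. The simulation therefore did not cover the unknown number of tests or the shared control libraries. Transcript GC content and length came from GENCODE 29 and were found for 82.1% of 7447 protein-coding rows. Ratios of means used a pseudocount of 1. In trex4039 the log2 ratios of means were 0.50, 0.48 and 0.44 for CYR61, CTGF and ANKRD1, each larger than the deposited value. The gap was wider for rows of low counts, such as those named TAOK1 and COL1A2. RefSeq promoters (GRCh38.p14) were found for 2 of 3 members and protein sequences for 0. Python 3.11.15, pandas 2.3.3, numpy 2.4.6 and scipy 1.17.1 were used.

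Named genes are the members, up to 10 called genes per pathway list and the 3 rows nearest in profile to each member. Members and lists were chosen with earlier results of these data known. Alternatives were thresholds of 0.1 and 0.01, ratios of means, centring on the median, GC bins, other settings of the recovered errors, another reference group and a minimum mean of 50.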

Additional observations from a re-analysis of the deposited data

Results flagged for a closer look

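CYR61 was singled out because its change against control differed between groups of target libraries. It was the only member that could be tested for this, and in 1 pair of groups only. CTGF, at 0.44 in trex4039 and -0.20 in trex8168, was not tested. For CYR61 the deposited log2 fold change was 0.47 in trex4039 and 0.16 in trex8168. The difference was 0.31, with an adjusted p of 0.0109 (normal test on errors recovered from the deposited DESeq2 values). Both comparisons use the same control libraries. The limit of 0.1 for entering this test was chosen after results were seen, and 517 of the 2385 rows tested (21.7%) differed in either direction.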

How the results depend on the processing

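All 3 members were called higher in trex4039 at adjusted p thresholds of 0.1, 0.05 and 0.01, and in trex8168 the count went from 0 to 1 (CYR61) at 0.1. With ratios of group means (pseudocount 1) and with centring on the median of all listed rows, each of the 12 member values moved by less than the standard error recovered for the gene in trex4039. Minus the GC bin median, ANKRD1 in trex4039 went from 0.38 to 0.15, and its uncalled value in trex5008 from 0.11 to -0.07. The other 10 values moved by less than that error, though the uncalled value of ANKRD1 in trex8168 went from 0.06 to -0.04. Against the mean of the other 3 target groups, chosen after seeing the data, CYR61 stood at 0.36 and CTGF at 0.58. The CYR61 difference between trex4039 and trex8168 had adjusted p from 2.22e-06 to 0.0109 over the number of tests assumed and the covariance of shared controls (0 or 0.5 of the product of both errors). With a mean of at least 50, the fall of the row named TAOK1 left the Hippo list, which then had 0 lower rows. The fall of the row named ACTB left the actin and SRF list, which then had 2 lower rows. The planned test between target groups at 0.05 was not run for members, since none was under 0.05 in 2 comparisons. No replicate could be left out and no paired analysis was possible because the values are group means.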
